A study of Homo sapiens with 6 samples.

Results

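The genes described here encode G protein-coupled receptors of the orphan, adhesion, opioid, aminergic, lipid, nucleotide, glutamate and protease-activated families, measured by RNA sequencing in WM164, an established human melanoma cell line. Members were taken from the count table as protein-coding genes whose symbols carry the stems of these families (GPR followed by a digit, GPRC5, ADGR, OPR, ADR, ADORA, HTR, P2RY, S1PR, LPAR, PTGER, CHRM, DRD, GRM and F2R), with GPR143 left out. The rule found 193 of the 58870 genes in the table. It reads symbols alone, so it also takes in the HTR3 genes, which encode ion channel subunits, and several GPR genes whose products are receptor-like or sit on internal membranes (GPR89A, GPR89B, GPR107, GPR108, the GPR137 genes, GPR155 and GPR180). P2RY8 lies in a region shared by the X and Y chromosomes and has 2 rows, 1 per copy. Both groups were WM164 cells grown in culture: 3 libraries came from cells overexpressing GFP as the control, and 3 came from cells overexpressing T-MGM, a tethered dimer that links MAFG to MITF (the melanocytic M isoform), both of them transcription factors, through a flexible peptide. In the study's methods the constructs are carried by lentivirus under a constitutive promoter and cells are selected with blasticidin. T-MGM is compared with GFP alone, not with free MAFG or free MITF. The counts of MAFG and MITF given below do not show the level of T-MGM in these libraries. The labels do not say whether the 3 libraries of a group came from separate cultures, so the p-values measure the spread between these libraries, which may be technical.

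G protein-coupled receptors sit in the plasma membrane, bind a ligand outside the cell and activate a heterotrimeric G protein inside it. Receptors coupled to Gs raise cyclic AMP, those coupled to Gi lower it, and those coupled to Gq activate phospholipase C. RGS proteins shorten the G protein signal, and receptor kinases and arrestins switch the receptor off. In pigment cells cyclic AMP acts upstream of MITF transcription, and adhesion receptors, which carry long extracellular regions and cut themselves near the membrane, bind matrix and surface proteins of neighbouring cells.

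The libraries held 35057239 to 38738065 counts with GFP and 44577774 to 59250663 with T-MGM, so the T-MGM libraries were all deeper. They nevertheless had fewer genes with a count, 22120 to 22601 against 23447 to 24115 with GFP. The part of this difference in the results for low-count genes was not tested. Log2 expression correlated at 0.991 to 0.994 within groups and at 0.971 to 0.974 between them, across 12654 genes. All 6 melanocytic markers checked (PMEL, MLANA, SOX10, MITF, TYR and S100B) were expressed, with a summed level of 1088 to 1110 TPM (a level scaled for transcript length and depth) with GFP and 964 to 1000 TPM with T-MGM. The single markers did not move together. In the count test described below all 6 had an adjusted p at or under 0.05, 3 higher and 3 lower in T-MGM, none over 2-fold. Keratinocyte markers summed to 0.03 to 0.16 TPM over all libraries. The 3 fibroblast markers summed to 3.72 to 4.72 TPM with GFP and 4.97 to 6.52 TPM with T-MGM, with PDGFRA (log2 fold change 1.5) and LUM (0.77) both higher in T-MGM. The part of this difference in the results below was not tested. Endothelial markers summed to 0.17 to 0.34 TPM, and of the 4 leukocyte markers only CD68 was expressed. The construct genes did not set the groups apart: MAFG changed by -0.06 on the log2 scale (DESeq2 adjusted p = 0.236) and MITF by 0.08 (adjusted p = 4.8e-07), and the MITF difference was -0.06 on the TPM scale, so T-MGM below means the libraries labelled T-MGM.

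Expression was set at a mean normalized count (count divided by the library's size factor) of at least 10 over all 6 libraries, which 61 of the 193 members reached. Just inside the minimum were ADGRB3 at 10.2, GPR37 at 12.8 and GPR160 at 13.6, and just outside it were GPR179 at 9.83 and ADGRE1 at 9.12. OPRD1, ADGRB3 and GPR37 reached it only through their T-MGM libraries. Of the 132 members below the minimum, 73 had at most 3 counts in every library, 23 of these with none at all. The highest levels belonged to adhesion receptors: ADGRG1 at 65.8 ± 2.57 TPM with GFP and 75.3 ± 1.75 TPM with T-MGM (SD, n = 3 here and below), ADGRL2 at 42.8 ± 1.65 and 28.6 ± 1.18 TPM, and ADGRG6 at 33.1 ± 1.73 and 23.1 ± 0.427 TPM. GPR137 (19.1 ± 1.79 and 18.4 ± 1.38 TPM) and ADGRL1 (18.3 ± 2.38 and 15.9 ± 1.58 TPM) came next and did not differ from each other beyond their spread.

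**Figure D1:**
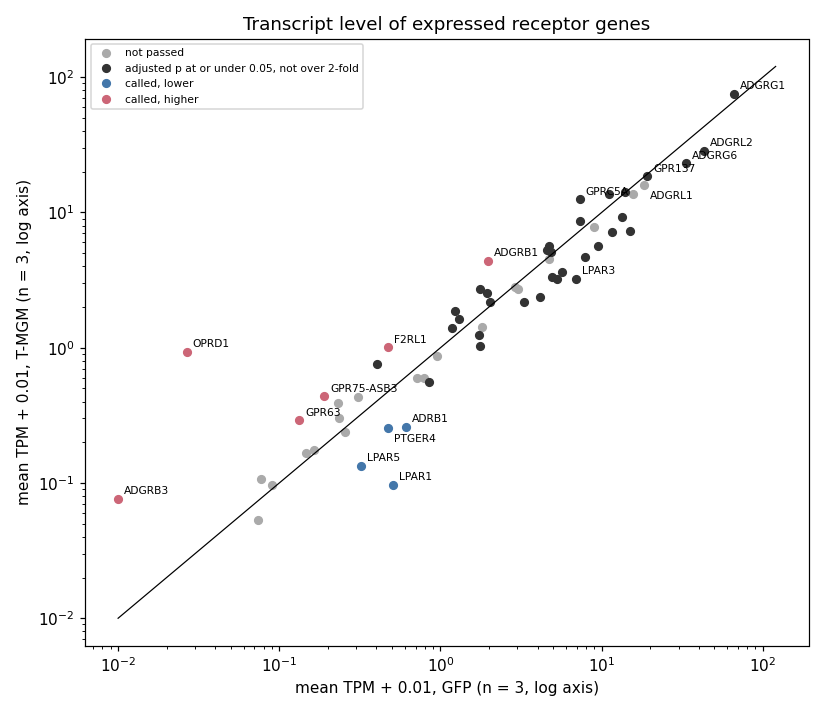
Mean TPM + 0.01 of the 61 expressed members in GFP (x axis) and T-MGM (y axis), 3 libraries each, both axes logarithmic, coloured by the result of the count test, with the line of equal level drawn. OPRD1 lies far above the line, from 0.0167 TPM in GFP to 0.923 TPM with T-MGM, while ADGRG1, ADGRL2 and ADGRG6 lead in both groups.

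In the test across all genes, a gene was called at a DESeq2 adjusted p at or under 0.05 with a change over 2-fold. Of the 193 members 90 had an adjusted p, and 13 were called: 7 higher and 6 lower in T-MGM. Members were chosen with earlier results of these data known, and the part of that choice in these counts was not tested. Over all 19135 genes tested 4.63% were called, 3.26% higher and 1.36% lower. At the adjusted p alone 45 members passed, 22 higher and 23 lower, against 38.4% of all genes tested. Among the 61 expressed members 10 were called (16.4%), 6 higher and 4 lower, beside 4.93% of protein-coding genes at the same minimum. Leaving out the 3 members that reached the minimum through one group, 8 of 58 were called. At the adjusted p alone 42 of the 61 passed (68.9%), 21 in each direction, beside 53.8% of such genes. The libraries of the groups did not overlap in 42 of the 61, beside 60.8%. The median log2 fold change of the expressed members was 0.10, or 0.02 without the 3 members that reached the minimum through one group, and that of all genes tested was -0.00. For members below the minimum that had any count the median was -1.01, on low counts.

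**Figure D2:**
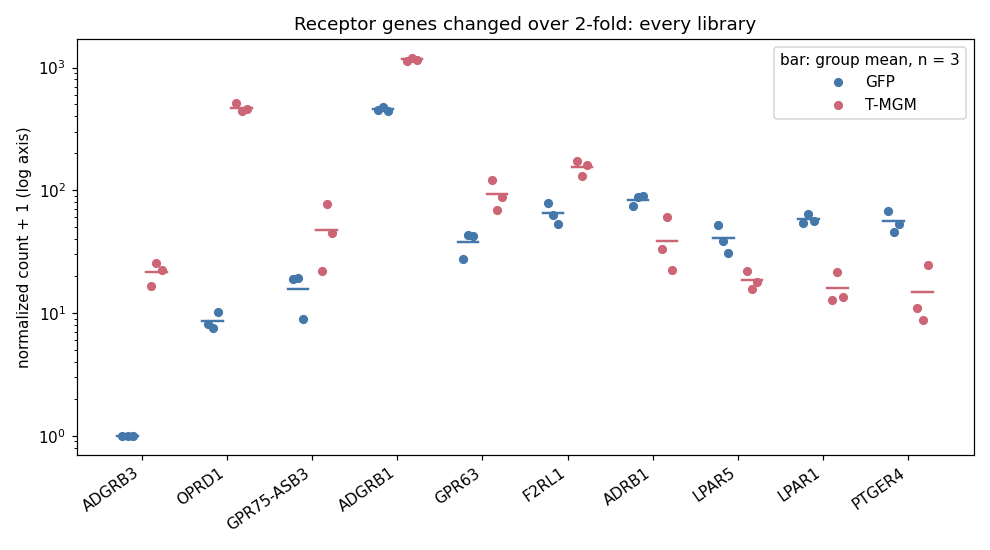
Normalized count + 1 in every library (log axis) for the 10 expressed members called over 2-fold, with GFP libraries in blue, T-MGM libraries in red and a bar at each group mean (n = 3). The 10 genes were chosen by these same counts. The groups do not overlap for any of them, beside 60.8% of expressed protein-coding genes. ADGRB3 had 0 counts in all 3 GFP libraries.

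Of the opioid receptors, OPRD1 rose from near absence. OPRD1 (ENSG00000116329.11, chr1:28812170-28871267 in GRCh38, plus strand) encodes the delta opioid receptor, a Gi-coupled receptor for enkephalins. Its normalized counts were 7.19, 6.5 and 9.14 with GFP and 510, 440 and 460 with T-MGM. Every T-MGM library stood far above every GFP library. The difference was 61.9-fold (95% interval 38.9 to 98.4, log2 fold change 5.95 ± 0.34 SE, DESeq2 adjusted p = 4.63e-66). In RNA from whole cultures, more cells expressing a gene and more of its RNA per cell cannot be told apart. An antisense gene overlapping OPRD1 had 0 to 3 counts per library, and the 206 expressed genes within 10 Mb had a median log2 fold change of -0.08. The nociceptin receptor gene OPRL1 had 22.2 ± 7.07 normalized counts with GFP and 26.9 ± 10.1 with T-MGM (log2 fold change 0.27, 1.21-fold with an interval of 0.665 to 2.19, adjusted p = 0.696), and its groups overlapped. The mu and kappa receptor genes stayed below the minimum, with at most 9 counts for OPRM1 and 11 for OPRK1 in any library. Of the opioid peptide precursors, POMC and PNOC had no count in any library, and PENK and PDYN were below the minimum. The 250 bases before the RefSeq start of OPRD1 (GRCh38.p14, chr1:28811920-28812169, plus strand) are shown because this gene rose 61.9-fold. They hold the E-box CACGTG, the core letters that MITF and related factors bind, marked in capitals 53 to 48 bases before the start. In the search below CACGTG stood in 6.52% of the windows of expressed members and 7.43% of all windows. Binding of T-MGM to this site was not tested.
OPRD1: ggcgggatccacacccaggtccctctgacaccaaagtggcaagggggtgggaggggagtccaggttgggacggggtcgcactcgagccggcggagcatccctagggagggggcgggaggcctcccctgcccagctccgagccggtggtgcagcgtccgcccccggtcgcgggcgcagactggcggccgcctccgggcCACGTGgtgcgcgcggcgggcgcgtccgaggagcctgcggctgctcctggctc

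Adhesion receptors gave 10 expressed members of 29, of which 9 passed the adjusted p, 6 higher and 3 lower, beside 53.8% of expressed protein-coding genes. Of the 10, 2 were called, beside 4.93%, and 1 of these, ADGRB3, reached the minimum only through its T-MGM libraries. Both are brain-specific angiogenesis inhibitor genes, whose products bind matrix and synaptic proteins. ADGRB1 (ENSG00000181790.11) had normalized counts of 446, 479 and 444 with GFP and 1134, 1200 and 1159 with T-MGM. Replicates were tight and the groups lay far apart. ADGRB1 was 2.55-fold higher in T-MGM (interval 2.31 to 2.81, log2 fold change 1.35 ± 0.07 SE, adjusted p = 3.35e-78), a rise from 1.97 ± 0.165 to 4.38 ± 0.259 TPM. ADGRB3 (ENSG00000135298.14, chr6:68635282-69390571, plus strand) had no count in any GFP library and 17, 25 and 29 counts with T-MGM. Against the floor of 3 counts per GFP library it was at least 5.97-fold higher (adjusted p = 2.78e-06), at a level of 0.0667 ± 0.0115 TPM, so it was detected at a trace level only. The third gene of this trio, ADGRB2, was at 328 ± 39.9 and 402 ± 38.0 normalized counts (log2 fold change 0.29, adjusted p = 0.0277). The 250 bases before the RefSeq start of ADGRB3 (GRCh38.p14, chr6:68635032-68635281, plus strand) are shown as those of the gene that went from no count to detection. They are 79.2% G and C with 46 CpG dinucleotides and hold none of the motifs searched below.
ADGRB3: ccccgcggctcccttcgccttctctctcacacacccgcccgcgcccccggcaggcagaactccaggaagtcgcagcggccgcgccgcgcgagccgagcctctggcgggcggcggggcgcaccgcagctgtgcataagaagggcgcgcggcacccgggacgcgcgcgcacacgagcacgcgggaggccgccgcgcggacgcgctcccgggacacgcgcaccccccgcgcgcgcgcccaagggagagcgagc

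Among the abundant adhesion receptors the changes were small and tightly measured. ADGRG1, a receptor for transglutaminase 2 and collagen known from melanoma studies, had 6740, 6743 and 6689 normalized counts with GFP and 8676, 8494 and 9000 with T-MGM, a rise of 0.38 ± 0.02 SE on the log2 scale (adjusted p = 3.17e-52). ADGRL2, a latrophilin that binds teneurins and FLRT proteins, had 7184, 7210 and 7293 normalized counts with GFP and 5497, 5721 and 5692 with T-MGM. It fell by 0.36 on the log2 scale (adjusted p = 5.12e-47). The other expressed latrophilin, ADGRL1, did not pass (log2 fold change -0.03, adjusted p = 0.592, 0.982-fold with an interval of 0.941 to 1.03), although it passed as a fall with total counts as size factors (-0.08) and with GC and length offsets (-0.17). ADGRG6, which binds collagen IV and laminin, fell by 0.22 (adjusted p = 1.09e-14), and ADGRA3 fell by 0.29. ADGRE5, which encodes the leukocyte antigen CD97 and binds CD55, rose by 0.49 (adjusted p = 1.52e-18), and ADGRA2, a co-receptor in Wnt7 signalling, rose by 0.52. Below the minimum, and chosen here after its values were seen, ADGRL3 had 13, 10 and 14 counts with GFP and 0, 0 and 2 with T-MGM, at least 5.38-fold lower against the floor (adjusted p = 0.000809). ADGRE1 had 2, 1 and 4 counts with GFP and 6, 18 and 32 with T-MGM (adjusted p = 0.0103), and this call was lost without GFP replicate 2, T-MGM replicate 2 or T-MGM replicate 3.

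Both expressed protease-activated receptors passed as higher in T-MGM, beside 53.8% of expressed protein-coding genes that passed in either direction. These receptors are switched on when a protease cuts their outer end. F2RL1 (ENSG00000164251.5, chr5:76818933-76835315, plus strand), which encodes PAR2, the trypsin and tryptase receptor that in skin is known for pigment transfer to keratinocytes, had normalized counts of 77.9, 61.7 and 52.5 with GFP and 171, 130 and 159 with T-MGM. The lowest T-MGM library lay well above the highest GFP library. It was 2.40-fold higher (interval 1.8 to 3.19, log2 fold change 1.26 ± 0.21 SE, adjusted p = 1.26e-08). F2R, the main thrombin receptor gene, had 862 ± 41.7 normalized counts with GFP and 1104 ± 49.1 with T-MGM, a rise of 0.36 on the log2 scale (adjusted p = 1.25e-07). F2RL2 and F2RL3 had at most 8 counts in any library.

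The orphan and receptor-like GPR genes were the largest family, with 24 expressed members of 78. Of these 18 passed the adjusted p, 9 higher and 9 lower, beside 53.8% of expressed protein-coding genes, and 2 were called, both higher, beside 4.93%. GPR63 (ENSG00000112218.9, chr6:96794125-96837477, minus strand), an orphan receptor, had normalized counts of 26.4, 42.2 and 41.1 with GFP and 120, 68.3 and 87.1 with T-MGM. The groups did not overlap, but the T-MGM libraries spread widely. It was 2.51-fold higher (interval 1.69 to 3.71, log2 fold change 1.33 ± 0.29 SE, adjusted p = 2.32e-05). The other call was GPR75-ASB3 (ENSG00000270898.5), a read-through gene that joins GPR75 to its neighbour ASB3, with normalized counts of 18.0, 18.4 and 8.0 with GFP and 21.0, 76.1 and 43.5 with T-MGM (log2 fold change 1.66 ± 0.47 SE, adjusted p = 0.00175). One T-MGM library sat just above the GFP range, and without T-MGM replicate 2 the change was 1.13 with an adjusted p of 0.104. Reads of such a gene are shared with both partners, and neither GPR75 (log2 fold change -0.18, adjusted p = 0.465) nor ASB3 (-0.16, adjusted p = 0.113) passed, so its count is uncertain. GPR83, below the minimum and chosen after its values were seen, had 7, 15 and 2 counts with GFP and 2, 0 and 1 with T-MGM (adjusted p = 0.0219), a call lost without any one of GFP replicates 1 and 2 and T-MGM replicates 2 and 3.

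Most orphan genes that passed moved by less than 2-fold. GPR180 went from 1862 ± 58.9 to 1177 ± 44.3 normalized counts and fell by 0.66 on the log2 scale (adjusted p = 1.05e-38). GPR161, a receptor of the primary cilium that holds back Hedgehog signalling, went from 1314 ± 56.0 to 853 ± 47.7 and fell by 0.62 (adjusted p = 5.21e-23). GPR153 fell by 0.55 (adjusted p = 2.13e-31), and GPR155, a lysosomal cholesterol sensor, fell by 0.62 (adjusted p = 4.72e-26). In each of these genes the lowest GFP library lay above the highest T-MGM library, but they were chosen by these same counts. Among expressed protein-coding genes 60.8% did not overlap between groups. GPR89A, whose product helps acidify the Golgi, fell by 0.87 (adjusted p = 8.05e-36), and its near-identical copy GPR89B fell by 0.62 (adjusted p = 1.35e-15), with the division of reads between the copies uncertain. GPR55, a receptor for lysophosphatidylinositol, fell by 0.62 (309 ± 34.7 to 201 ± 10.1 normalized counts, adjusted p = 6.56e-06). Of the 7 expressed genes of this family that passed as higher without being called, GPR162 (log2 fold change 0.90, adjusted p = 0.0231) and GPR146 (0.55, adjusted p = 0.0122) changed most. GPR162 overlaps P3H3 on its own strand and GPR146 overlaps C7orf50 on the opposite strand, so their counts are uncertain. GPR137 was 0.19 higher in counts (adjusted p = 0.00516) but -0.05 on the TPM scale, so its direction depends on the scale. Over all families, the 10 expressed members under 2-fold with the largest test statistics kept their direction in all 17 alternative fits. They were chosen by that statistic in these same libraries, which the fits reuse, so their direction could hardly change.

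The class C orphan genes are inducible by retinoic acid. GPRC5A had 1565, 1731 and 1542 normalized counts with GFP and 3162, 3100 and 3169 with T-MGM. The groups lay far apart, and the rise of 0.96 ± 0.04 SE on the log2 scale (1.95-fold, interval 1.84 to 2.07, adjusted p = 6.57e-109) sat at the edge of the 2-fold threshold, passing it without GFP replicate 2 (1.02). GPRC5B had 1578 ± 58.7 and 1655 ± 23.3 normalized counts (log2 fold change 0.07, adjusted p = 0.274, 1.05-fold with an interval of 0.984 to 1.12).

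Lysophosphatidic acid (LPA) receptors, which couple to Gi, Gq and G12/13, gave 5 expressed genes of 6. Of these 3 fell, beside 53.8% of expressed protein-coding genes that passed in either direction, and 2 did not pass. LPAR3 was the most abundant, with 1211, 1122 and 1166 normalized counts with GFP and 612, 588 and 576 with T-MGM. It fell by 0.98 ± 0.07 SE on the log2 scale (1.97-fold lower, interval 1.8 to 2.16, adjusted p = 2.04e-48), from 6.91 ± 0.217 to 3.22 ± 0.0551 TPM. This lies at the 2-fold threshold, and the gene was called with total counts as size factors (-1.03) and without GFP replicate 2 (-1.01) or T-MGM replicate 1 (-1.0). LPAR1 (ENSG00000198121.13, chr9:110873263-111038470, minus strand) had normalized counts of 52.8, 62.8 and 54.8 with GFP and 11.9, 20.5 and 12.5 with T-MGM. It was 3.84-fold lower (interval 2.34 to 6.28, log2 fold change -1.94 ± 0.36 SE, adjusted p = 5.43e-07), with the groups well apart. LPAR5 (ENSG00000184574.10, chr12:6618835-6635960, minus strand) had 51.6, 37.9 and 29.7 normalized counts with GFP and 21.0, 14.6 and 17 with T-MGM. It was 2.26-fold lower (interval 1.32 to 3.86, log2 fold change -1.18 ± 0.39 SE, adjusted p = 0.00894), and without GFP replicate 1 the change was -0.95 with an adjusted p of 0.115. LPAR6, at 265 ± 59.6 and 252 ± 18.0 normalized counts (log2 fold change -0.07, adjusted p = 0.766), and LPAR2, at 30.9 ± 3.41 and 35 ± 13.8 (0.17, adjusted p = 0.793), overlapped between groups, with fold intervals of 0.782 to 1.16 and 0.667 to 1.89. ENPP2, which encodes autotaxin, the enzyme that makes LPA outside the cell, went the other way, from 104, 70.4 and 138 normalized counts in GFP to 385, 364 and 384 with T-MGM (3.63-fold higher, log2 fold change 1.86 ± 0.16 SE, adjusted p = 3.65e-29). PLPP2, a phosphatase that breaks LPA down, fell by 0.58 (adjusted p = 3.73e-15).

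Of the prostaglandin E2 receptors only PTGER4 was expressed. PTGER4 (ENSG00000171522.6, chr5:40679915-40693735, plus strand) encodes the Gs-coupled EP4 receptor, and its normalized counts were 67.2, 44.4 and 52.5 with GFP and 10.04, 7.81 and 23.6 with T-MGM. It was 3.85-fold lower (interval 2.21 to 6.71, log2 fold change -1.95 ± 0.41 SE, adjusted p = 9.91e-06), with no overlap between groups. On the TPM scale its groups overlapped, at 0.463 ± 0.0569 TPM with GFP and 0.243 ± 0.248 TPM with T-MGM. T-MGM replicate 3, at 0.52 TPM, lay above every GFP library (0.40, 0.51 and 0.48 TPM). TTC33 on the opposite strand had 324 to 457 counts per library and fell by 0.39. PTGES, which encodes a prostaglandin E synthase, rose 2.24-fold, from 50.8 ± 8.45 to 114 ± 9.07 normalized counts (adjusted p = 2.11e-06), while PTGS1 and PTGS2, the cyclooxygenase genes upstream of it, were below the minimum. Of the sphingosine 1-phosphate receptors, S1PR5 fell by 0.43 (278 ± 21.4 to 206 ± 17.5 normalized counts, adjusted p = 0.00327). S1PR2 (log2 fold change 0.10, adjusted p = 0.316) and S1PR3 (-0.19, adjusted p = 0.431) did not pass. S1PR1 and S1PR4 had at most 3 counts in any library. The 250 bases before the RefSeq starts of PTGER4 (GRCh38.p14, chr5:40679665-40679914, plus strand) and LPAR1 (GRCh38.p14, chr9:111038999-111039248, minus strand) are shown for the 2 expressed members that fell most. They differ in composition, at 72.8% and 48.4% G and C with 26 and 11 CpG dinucleotides, and neither holds a motif searched below. The RefSeq start of LPAR1 lies outside the GENCODE span given above.
PTGER4: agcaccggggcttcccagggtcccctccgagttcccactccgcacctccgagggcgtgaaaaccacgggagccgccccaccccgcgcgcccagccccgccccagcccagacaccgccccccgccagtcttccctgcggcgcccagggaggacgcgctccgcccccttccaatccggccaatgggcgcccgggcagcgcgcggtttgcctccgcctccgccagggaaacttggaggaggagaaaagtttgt
LPAR1: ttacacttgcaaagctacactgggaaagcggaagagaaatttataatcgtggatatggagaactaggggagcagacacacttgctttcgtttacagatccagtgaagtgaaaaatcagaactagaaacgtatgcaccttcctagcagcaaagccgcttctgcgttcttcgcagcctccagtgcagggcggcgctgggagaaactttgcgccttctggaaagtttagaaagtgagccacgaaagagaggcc

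The aminergic receptors had few expressed members (2 adrenergic, 2 serotonin, 1 dopamine and 2 muscarinic) and 1 call, beside 4.93% of expressed protein-coding genes. ADRB1 (ENSG00000043591.5, chr10:114043866-114046904, plus strand) encodes a Gs-coupled beta adrenergic receptor, and its normalized counts were 73.1, 86.6 and 89.1 with GFP and 31.9, 59.5 and 21.4 with T-MGM. One T-MGM library lay close to the GFP range. ADRB1 was 2.24-fold lower (interval 1.46 to 3.42, log2 fold change -1.16 ± 0.31 SE, adjusted p = 0.000791), and without T-MGM replicate 3 it fell by 0.86 (adjusted p = 0.0212), under 2-fold. ADRA2C, a Gi-coupled receptor gene, had 19.9 ± 5.65 and 32.4 ± 7.04 normalized counts (log2 fold change 0.71, adjusted p = 0.175). HTR7, a Gs-coupled serotonin receptor gene, had 1258, 1108 and 1268 normalized counts with GFP and 758, 772 and 822 with T-MGM and fell by 0.62 (adjusted p = 6.67e-20), with no overlap. HTR6 did not pass (log2 fold change 0.25, adjusted p = 0.783), and the remaining 15 serotonin receptor genes had at most 4 counts in any library. DRD2, a Gi-coupled dopamine receptor gene, went from 105 ± 27.7 to 56.4 ± 3.40 normalized counts and fell by 0.90 (adjusted p = 0.00069). The muscarinic genes CHRM3 (log2 fold change 0.22, adjusted p = 0.115) and CHRM4 (0.98, 1.98-fold with an interval of 1.02 to 3.85, adjusted p = 0.105) did not pass.

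Among purine receptors, ADORA2B, a low-affinity Gs-coupled adenosine receptor gene, had 108, 93.1 and 91.4 normalized counts with GFP and 146, 172 and 170 with T-MGM, a rise of 0.74 on the log2 scale (1.67-fold, interval 1.31 to 2.12, adjusted p = 0.000135). P2RY1, an ADP receptor gene, fell by 0.35 (546 ± 45.8 to 429 ± 33.9 normalized counts, adjusted p = 0.000797), and P2RY11, an ATP receptor gene, rose by 0.40 (261 ± 35.8 to 344 ± 42.7, adjusted p = 0.00628). P2RY11 overlaps PPAN and the read-through gene PPAN-P2RY11 on its own strand and EIF3G on the opposite strand, so its count is uncertain. P2RY6 did not overlap between groups but did not pass (0.52, adjusted p = 0.353). Of the enzymes that shape these ligands, ENTPD1, which breaks down ATP and ADP, fell 2.37-fold, from 49.5 ± 10.04 to 21.0 ± 3.58 normalized counts (adjusted p = 0.00147), and NT5E, which makes adenosine, rose by 0.24 (adjusted p = 6.95e-14).

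**Figure D3:**
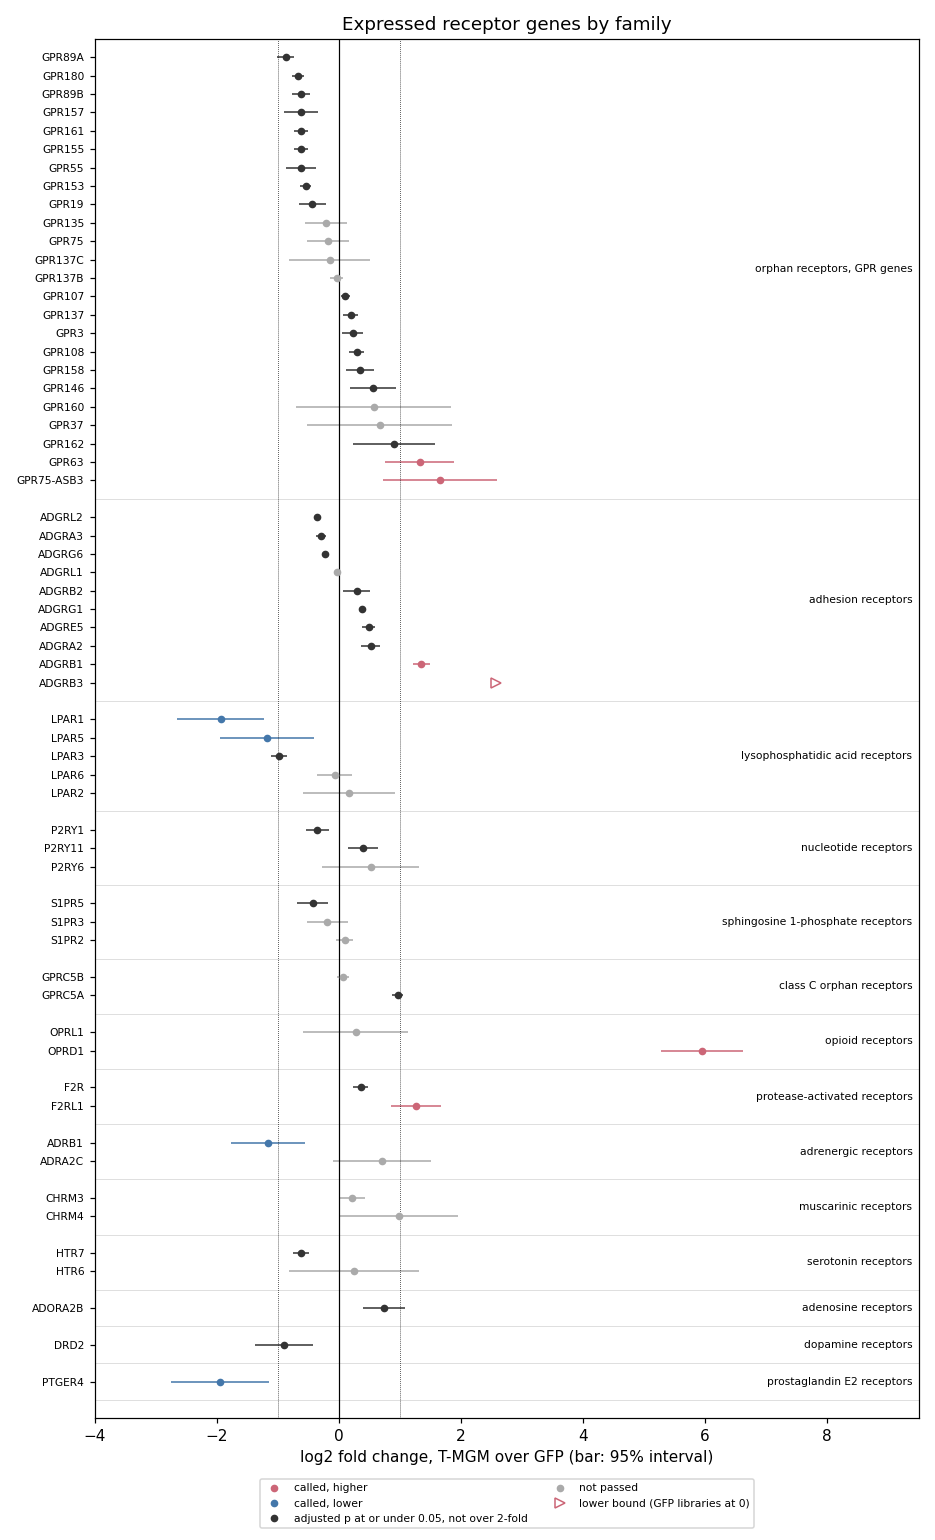
Log2 fold change (T-MGM over GFP) of expressed members by family, with 95% intervals from the DESeq2 SE. Coloured points are called, black points passed the adjusted p without a call, grey points did not pass, dotted lines mark 2-fold, and the open triangle of ADGRB3 is a lower bound. LPAR1, LPAR5 and PTGER4 lie to the left of the 2-fold line and OPRD1 far to the right at 5.95.

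Several of the smaller falls stood beside falls of neighbouring genes. The median log2 fold change of expressed genes within 10 Mb was -0.31 around GPR180, -0.28 around GPR155, -0.26 around GPR153 and -0.24 around LPAR3, GPR89A and ADGRL2. It was -0.11 around GPR161 and -0.05 around HTR7. LPAR3 and ADGRL2 lie close together on chromosome 1, so their windows overlap. The median was -0.12 around PTGER4 and -0.07 around LPAR1. Some rises stood beside higher neighbours, with a median of 0.24 around GPR137 and 0.18 around ADGRB1. Around other members that rose it was 0.08 (ADGRG1), 0.05 (GPRC5A), -0.04 (GPR63) and -0.06 (F2RL1). The part of the region in these values was not tested.

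T-MGM joins 2 DNA-binding proteins, so the windows from 250 bases before to 50 after the RefSeq start (GRCh38.p14), found for 46 of the 61 expressed members, were searched on both strands for 4 short motifs. These were the E-boxes CACGTG and CATGTG, the letters TGACTCA and the letters TGCTGA, the core that small MAF proteins favour, and none of them contains another. CACGTG stood in 3 members (6.52%, OPRD1, GPR146 and HTR6), beside 7.43% of 27305 windows of the table's genes, and CATGTG in 2 (4.35%, GPRC5B and GPR137B), beside 11.2%. TGACTCA stood in 2 (4.35%, LPAR2 and GPR3), beside 4.92%, and TGCTGA in 6 (13.0%, ADGRG6, ADRB1, LPAR5, LPAR2, P2RY11 and GPR108), beside 17.4%. Of the 9 called members with a window (GPR75-ASB3 shares that of GPR75), OPRD1 held CACGTG and ADRB1 and LPAR5 held TGCTGA. The 250 bases before the start had a median of 70.8% G and C and 25 CpG dinucleotides in the 46 expressed members, beside 58.0% and 11 for all genes.

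The genes that carry the receptor signal or make its ligands were taken from 10 lists with 174 genes in the table, of which 119 were expressed. The lists were chosen with earlier results of these data known, and the part of that choice in the shares below was not tested. Of these 119, 10 were called, 8 higher and 2 lower, beside 4.93% of expressed protein-coding genes, and 77 passed the adjusted p, 46 higher and 31 lower, beside 53.8%. PLCB2 (through T-MGM) and COL4A2 (through GFP) reached the minimum in one group only, and without them 9 of 117 were called, 7 higher and 2 lower. The median log2 fold change was 0.08 over the 119 genes. GNAI1, a Gi alpha subunit, had 49.2, 22.7 and 29.7 normalized counts with GFP and 291, 224 and 334 with T-MGM. It was 8.45-fold higher (log2 fold change 3.08 ± 0.23 SE, adjusted p = 2.95e-39) with the groups far apart. The far more abundant GNAI2 rose by 0.47 (9064 ± 77.2 to 12581 ± 207 normalized counts) and GNAI3 fell by 0.19. Of the 10 expressed alpha subunit genes GNAI1 alone was called, and 3 passed higher and 3 lower. Of the 12 expressed beta and gamma subunit genes none was called and 7 passed, 2 higher and 5 lower, with GNB1 falling by 0.34. GNG12 fell by 0.11 but was 0.04 higher with GC and length offsets.

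Both phospholipase C genes that were called rose. PLCB1, an effector of Gq, went from 42.0 ± 10.7 to 270.5 ± 25.1 normalized counts (6.47-fold, adjusted p = 5.71e-40), with a smaller difference on the TPM scale, from 0.640 to 1.41. PLCB2 went from 1.20, 5.41 and 1.14 normalized counts in GFP to 58.4, 57.6 and 43.5 with T-MGM (log2 fold change 4.32 ± 0.65 SE, adjusted p = 1.86e-10). PLCB4 and PREX1, a Rac exchange factor that responds to beta-gamma subunits, each fell by 0.52. Among RGS genes RGS2 rose 3.07-fold (26.0 ± 4.17 to 79.4 ± 8.56 normalized counts, adjusted p = 2.87e-07) and RGS12 rose by 0.54. Of 10 expressed RGS genes 6 passed as higher and 1 as lower, beside 53.8% of expressed protein-coding genes that passed in either direction. No receptor kinase or arrestin gene was called. GRK2 rose by 0.25 and GRK5 fell by 0.40.

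Of 21 expressed genes of cyclic AMP enzymes and effectors, 7 passed in each direction, beside 53.8% of expressed protein-coding genes in either direction. RAPGEF3, the cyclic AMP-activated exchange factor EPAC1, rose 2.94-fold (15.7 ± 5.15 to 46.3 ± 15.4 normalized counts, adjusted p = 0.000689), and PRKAR2A, a regulatory subunit of protein kinase A, rose by 0.54. PDE7B, a cyclic AMP phosphodiesterase gene, fell 2.08-fold (224 ± 19.96 to 108 ± 32.6, adjusted p = 1.22e-07), a fall under 2-fold without GFP replicate 3 (-0.99) or T-MGM replicate 3 (-0.83). ADCY1, an adenylyl cyclase gene, fell by 0.72 (4066 ± 190 to 2470 ± 65.6, adjusted p = 3.13e-81). Of the 9 genes known to be induced by cyclic AMP, 3 passed higher and 2 lower and none was called, with NR4A2 rising by 0.45 and FOS by 0.36.

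Of the 12 expressed genes for adhesion receptor ligands, 3 passed higher and 3 lower, beside 53.8% of expressed protein-coding genes in either direction. TGM2, transglutaminase 2, a ligand of ADGRG1, had 34.8, 47.6 and 43.4 normalized counts with GFP and 291, 236 and 233 with T-MGM. It was 6.02-fold higher (log2 fold change 2.59 ± 0.20 SE, adjusted p = 5.3e-36), with no overlap. CD55, a ligand of ADGRE5, fell by 0.48 (adjusted p = 1.16e-16). Of the 14 expressed lipid ligand genes 7 passed higher and 3 lower, and in the list of peptide, amine, nucleotide and protease ligand genes 7 passed higher and 2 lower. One of these, MAOB, an enzyme that breaks down amines, was below the minimum, at 2.57 ± 3.46 and 14.3 ± 6.99 normalized counts (adjusted p = 0.0204). PANX1, a channel that releases ATP, fell by 0.36 (adjusted p = 8.09e-07).

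**Figure D4:**
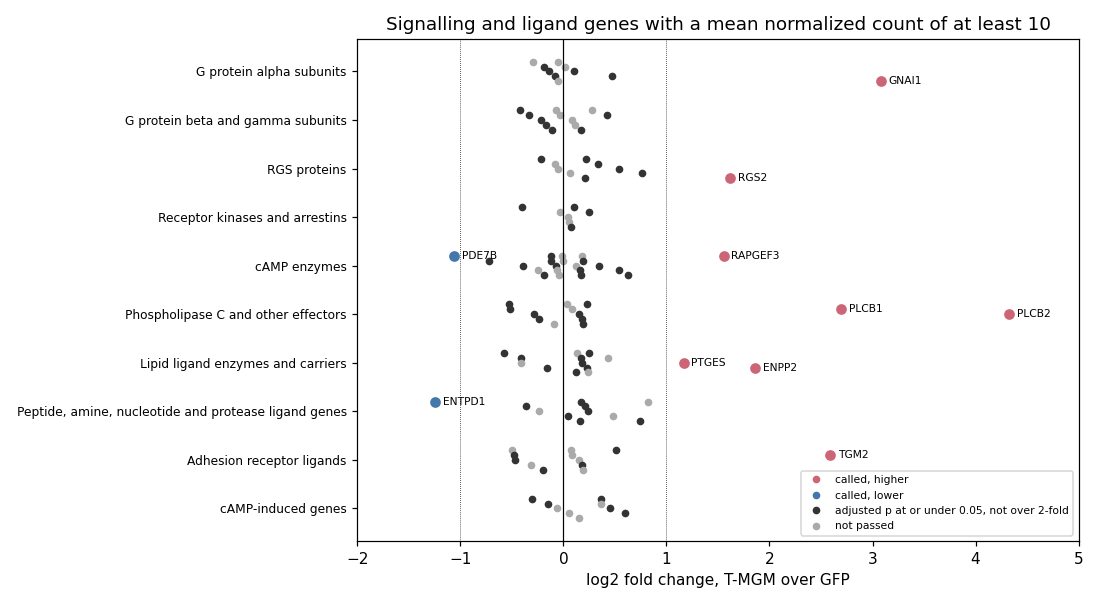
Log2 fold change (T-MGM over GFP) of the 119 expressed signalling and ligand genes, 1 row per list, with called genes named and dotted lines at 2-fold. Of the 10 called genes, 8 lie to the right, among them GNAI1 at 3.08 and PLCB2 at 4.32, which reached the minimum only through its T-MGM libraries, and PDE7B and ENTPD1 lie to the left.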

How the data were processed

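RNA from 6 WM164 libraries was sequenced. The authors trimmed reads with cutadapt 1.8.1, aligned them to GRCh38 with STAR 2.7.7a and counted uniquely aligned reads per gene, and the deposited counts are whole numbers, not normalized. The authors also deposited TPM values made with RSEM 1.3.0, rounded to 2 decimals and used here for levels and as an alternative. Versions come from the submitters' processing notes, and the annotation release is not given in the sources used here. The labels name a library kit without strand information and the study's methods a strand-specific one, so values of genes that overlap or run antisense to another are uncertain.

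Groups came from the sample titles. All deposited counts were fitted with DESeq2 1.42.0 in R 4.3.3, the tool the study's methods name, with group as the only term. A 2-sided Wald test was used, with Benjamini-Hochberg adjustment over the 19135 genes that had an adjusted p after independent filtering. Alternatives used edgeR 4.0.16 (quasi-likelihood), limma 3.58.1 on log2(TPM + 1) or log2(TPM + 0.1), other size factors and filters, and each library left out. The scripts were tested on simulated data. Gene coordinates came from GENCODE 44 (99.3% of gene IDs matched). A count of 3 per library was the floor (0.0506 to 0.0856 CPM). Such floors reflect counting error alone, as PCR copies of a molecule were not told apart by identifiers.

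Members and gene lists were chosen with earlier results of these data known. Genes were named by rule: expressed called members, the 10 under 2-fold with the largest Wald statistic, the 5 with the highest TPM, family members needed beside them, called signalling genes and the 2 with the largest statistic per list. Genes below the expression minimum, and the other markers and ligand genes given, were named in addition. Some members are not reported here.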

Additional observations from a re-analysis of the deposited data

How the results depend on the processing

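As reported, 13 members were called. With 1 library left out, 10 to 14 were called in all and 10 to 13 of the 13 kept their call. With edgeR, other size factors, filters or GC and length offsets, 11 to 14 were called in all and 11 to 13 kept theirs. Testing against a 2-fold change left 3 (OPRD1, ADGRB3 and ADGRB1), 3 also at the adjusted p alone, and 5 signalling genes. In limma on the TPM values 0 members were called with a pseudocount of 1 (also 0 without the filter), with 27 and 35 at an unadjusted p under 0.05. With a pseudocount of 0.1, 5 were called: 3 of the 13 kept their call, and GPR89A and LPAR3 were gained. Both filtered fits held a value for 46 members only. GPR63, ADGRB3, PTGER4, LPAR1, LPAR5 and GPR75-ASB3 were among the called members that the TPM filter removed, so they were not tested there. At the adjusted p alone the limma fits passed 23, 20 and 23 of the 45, and 1, 1 and 5 of the 11 signalling genes were called. A larger pseudocount shrinks changes of low genes by construction, and these fits shifted the median of all genes to -0.13 to -0.15. Leaving out 1 library gave 38 to 40 members at the adjusted p and 9 to 11 signalling genes.

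Directions reversed for GPR137 (-0.0486, -0.0508 and -0.0486) and MITF (-0.062, -0.0624 and -0.062) in the TPM fits and for GNG12 with GC and length offsets (0.0388). The causes were not tested. DRD2 and GPR162 were called without GFP replicate 1, and CHRM4 without T-MGM replicate 2. Replicate numbers are shared between the groups, but same-numbered libraries did not deviate together (correlations -0.007, -0.058 and 0.029). With the replicate block 12 members were called (GPR83 was lost), 39 passed the adjusted p and 11 signalling genes were called. At a mean of at least 50 normalized counts 45 members were expressed, and 59 at 0.1 TPM. ADGRB3, GPR75-ASB3, LPAR5 and PTGER4 rest on low counts, and the effect of depth on them was not tested.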
